A study of Mus musculus with 45 samples.

Results

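The genes described here are 9 genes of the retinoic acid pathway, taken as a fixed list of symbols and not by their values: Rdh10, Aldh1a2, Aldh1a1, Dhrs3, Cyp26a1, Crabp1, Crabp2, Rara and Rarb. All 9 were matched, among 18193 genes on the array. They were followed over 45 Affymetrix arrays in 15 groups of 3, namely mouse embryonic stem cells (ESC, line R1), whole CD1 embryos at embryonic day 7.5 (E7.5), CD1 heart tubes at E8.5, and CD1 left and right ventricles. The ventricles were sampled at 6 stages, in the embryo at E9.5 and E12.5, in the fetus at E14.5 and then E18.5, and after birth at day 3 and in the adult. No treatment or mutation was given for any group. No number of animals was given for ESC. A replicate was a pool of tissue from 30 to 50 animals at E7.5 to E9.5, from 10 to 20 at E12.5 and E14.5 and from 3 to 5 at E18.5, and after birth it was a single heart. The series design compares consecutive stages, and the left ventricle with the right.

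Retinoic acid is made from vitamin A in a pair of steps. Retinol dehydrogenases such as Rdh10 turn retinol into retinal, Dhrs3 reduces retinal back to retinol, and retinal dehydrogenases of the Aldh1a family turn retinal into the acid. The binding proteins Crabp1 and Crabp2 carry it in the cytosol, Cyp26 enzymes hydroxylate it for clearance, and the receptors Rara and Rarb switch genes on and off with it. In the early embryo the acid helps to set the posterior part of the heart field, and later the epicardium, the outer layer of the heart, is a known source of it.

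Cyp26a1 and Rarb are textbook targets of retinoic acid, and their promoters are printed here because they hold direct repeats of the kind the receptors are known to bind. Such a match in the letters is not a measured site. In the RefSeq promoter table (GRCm38.p6, from 250 bases before to 50 after a transcript's start), 7 of the 9 genes were found. They were searched on both strands for 2 half-sites (AGGTCA or GGGTCA or GGTTCA or AGTTCA) in the same orientation with a spacer of 5, 2 or 1 bases. Only Cyp26a1 and Rarb held a match, each with a spacer of 5. Of 32851 promoter windows of this length in the table, 32 (0.0974%) held such a repeat with a spacer of 5, 88 (0.268%) with a spacer of 2 and 73 (0.222%) with a spacer of 1. The Rarb repeat, with the half-site GGTTCA before AGTTCA on the gene's own strand, lay 53 to 37 bases before the start, and the Cyp26a1 repeat, AGTTCA at both positions on the opposite strand, lay 32 to 16 bases before it. For both genes the table held 1 window, built on the start of 1 transcript, and this start lies inside the span of the gene given further on. In the sequences, read 5′ to 3′ on the gene's strand, capitals mark the half-sites of the matched repeat. Half-sites outside it, such as a GGGTCA in the Rarb stretch, are not marked.
Rarb, chr14:16575477-16575626, minus strand: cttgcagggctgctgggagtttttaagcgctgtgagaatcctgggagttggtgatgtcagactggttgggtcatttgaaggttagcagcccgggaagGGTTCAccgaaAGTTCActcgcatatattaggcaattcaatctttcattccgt
Cyp26a1, chr19:37697770-37697799, plus strand: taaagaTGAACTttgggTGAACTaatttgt

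Values are log2 RMA expression values per probe set, on which a difference of 1 is a 2-fold difference. One probe set cannot be ranked against another by its value, so levels are compared only within a gene. From E9.5 on, the left and right ventricle of one number were averaged, and stage values are mean ± SD of 3. Differences are given ± SE from a limma fit over all genes, with p adjusted over the 18193 genes (Benjamini-Hochberg). A gene is called when this adjusted p is below 0.05. The arrays held whole tissue, so that fewer cells of a type and less RNA per cell cannot be told apart. The mean of 8 cardiomyocyte markers lay at 5.80 to 5.89 in ESC and 5.22 to 5.65 in E7.5 embryos, and at 12.3 or more on every array from E8.5 on. These markers set heart samples apart from the earlier ones. They do not check left against right, or ventricle against atrium. Of the 45 arrays, 6 carried a marker list of another tissue whose mean was over 1.5 log2 units above the average of the other arrays of their group. They were E7.5 embryo 2 (decidua and red cells), heart tube 2 (visceral endoderm), E14.5 left ventricle 2 (visceral endoderm and red cells), E18.5 left ventricle 2 (visceral endoderm), adult right ventricle 2 (adipose tissue) and adult right ventricle 3 (atrium).

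Of the 9 genes, 7 ranged widely. The difference between a gene's highest and lowest group mean was 6.23 for Aldh1a1, 5.90 for Cyp26a1 and for Crabp2, 5.74 for Crabp1, 5.16 for Rarb, 5.04 for Aldh1a2 and 4.82 for Dhrs3. For each of these, between 95.3% and 98.2% of all genes had a smaller range. Rdh10 had a range of 2.35 (larger than in 76.9% of genes), and Rara one of 0.58, which only 19.8% of genes fell below. The plot of values by array shows several kinds of course: genes lower at every ventricle stage than at any stage before (Rdh10, Cyp26a1), genes highest at E7.5 and E8.5, at E9.5 near their ESC level on average and lowest from E18.5 on (Crabp1, Crabp2), genes that were higher in the ventricle than in ESC (Aldh1a1, Dhrs3, Rarb), and Aldh1a2, which was high, low and high again.

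**Figure D1:**
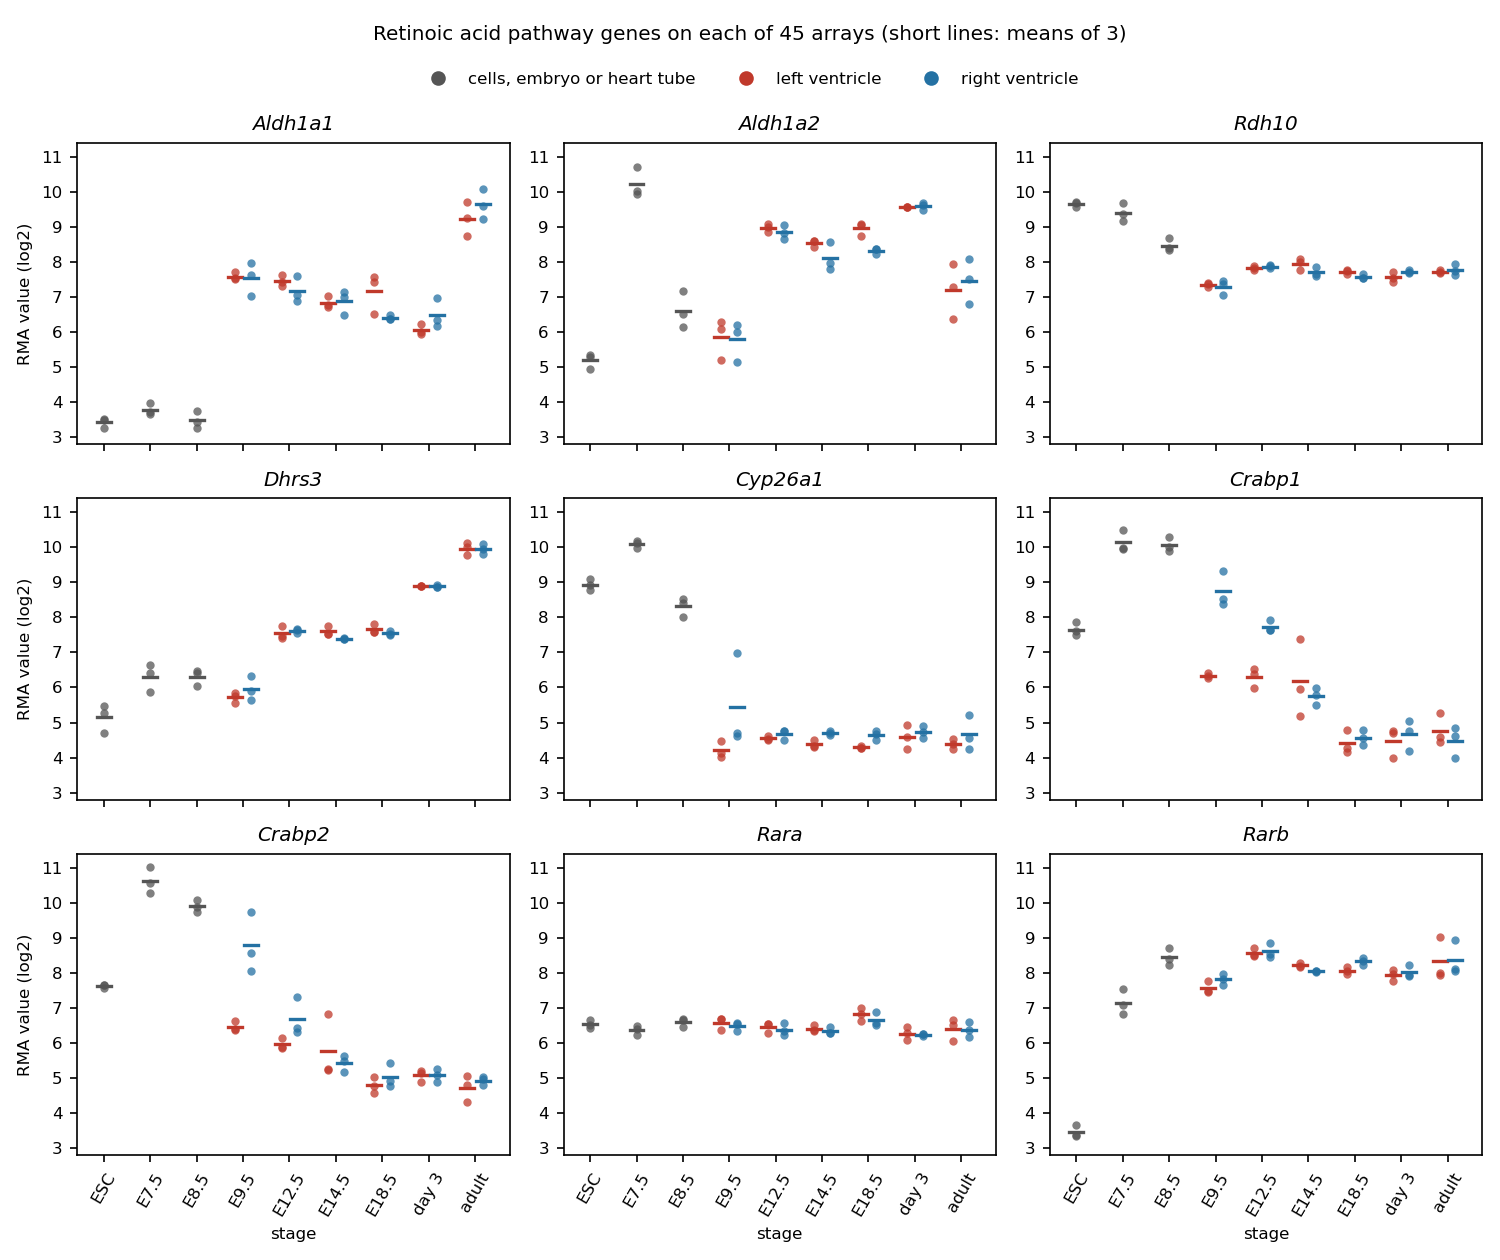
Log2 RMA values of the 9 genes on each of the 45 arrays, by stage from embryonic stem cells to the adult, with ventricles drawn apart from E9.5 on. Aldh1a2 was near 10 in the E7.5 embryo, near 6 at E9.5 and near 9.6 at day 3, and Rara stayed between 6.05 and 7.01 throughout.

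Rdh10, on chromosome 1 (chr1:16105882-16132550, GRCm38.p6), encodes the dehydrogenase of the first step. It stood at 9.64 ± 0.08 in ESC, 9.40 ± 0.26 in E7.5 embryos, 8.46 ± 0.19 in heart tubes and 7.32 ± 0.10 at E9.5, its lowest stage. It was at 7.85 ± 0.05 at E12.5, and the later stages lay between 7.64 and 7.82. Rdh10 fell by 0.93 ± 0.10 in the tube against the embryo (adjusted p = 5.42e-08) and fell by 1.14 ± 0.10 at E9.5 against the tube (adjusted p = 1.18e-08), and it was 0.53 ± 0.10 higher at E12.5 than at E9.5 (adjusted p = 0.00021). In none of these 3 comparisons did the groups overlap. The step from ESC to the embryo (-0.25 ± 0.10, adjusted p = 0.0491) was a call that did not hold: it was lost without ESC 2 (-0.21), ESC 3 (-0.23), embryo 1 (-0.12) or embryo 3 (-0.23), and without embryo 2 it was -0.38. Rdh10 was the only gene of the 9 with a second probe set, which read 7.70 ± 0.16 in the embryo and 7.53 ± 0.10 in ESC, the opposite order, and with the mean of both the difference was -0.04 (adjusted p = 0.73). From E7.5 on this second probe set had the same low point, with 6.05 ± 0.26 in left and 6.08 ± 0.16 in right ventricles at E9.5.

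Aldh1a2, on chromosome 9 (chr9:71215789-71296243), encodes the main retinal dehydrogenase of the mid-gestation embryo. It read 5.28, 4.93 and 5.35 in ESC, 10.71, 10.02 and 9.95 in E7.5 embryos and 6.52, 7.17 and 6.13 in heart tubes. At E9.5 it read 5.19, 6.29 and 6.07 in left and 6.01, 6.20 and 5.15 in right ventricles. The embryos thus stood far above both neighbours, and the tube and the E9.5 ventricles overlapped. At E12.5 it read 8.85, 9.07 and 8.99 in left and 8.66, 8.82 and 9.05 in right ventricles, every one above every E9.5 array. At day 3 it read 9.56, 9.56 and 9.57 in left and 9.49, 9.62 and 9.67 in right ventricles, the narrowest group. In the adult it read 6.37, 7.28 and 7.93 in left and 7.50, 8.08 and 6.79 in right ventricles, all below every day 3 array and the most spread out. Aldh1a2 was 5.04 ± 0.23 higher in the E7.5 embryo than in ESC, 32.8-fold (adjusted p = 1.44e-14), and it fell by 3.62 ± 0.23 in the tube against the embryo (adjusted p = 5.59e-12). It was 3.09 ± 0.23 higher at E12.5 than at E9.5, 8.52-fold (adjusted p = 3.78e-10), and 0.94 ± 0.23 higher at day 3 than at E18.5 (adjusted p = 0.0053). It fell by 2.25 ± 0.23 in the adult against day 3 (adjusted p = 1.83e-08). The day 3 step passed in right ventricles alone and not in left ones. In left ventricles it was 0.61 (adjusted p = 0.184), and in right ventricles 1.28 (adjusted p = 0.00423). The fall at E9.5 against the tube (-0.79 ± 0.23, adjusted p = 0.0135) was lost without heart tube 2 (-0.50), which carried the visceral endoderm markers and the highest Aldh1a2 of the tubes, without E9.5 number 1 (-0.68) and without E9.5 number 3 (-0.68). It also missed the threshold in left (adjusted p = 0.0888) and in right ventricles alone (adjusted p = 0.0511).

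By stage, Aldh1a2 was highest in the E7.5 embryo (10.22 ± 0.42), then at day 3 (9.58 ± 0.05), E12.5 (8.91 ± 0.14), E18.5 (8.63 ± 0.14), E14.5 (8.33 ± 0.24), in the adult (7.33 ± 0.37), at E8.5 (6.60 ± 0.53), at E9.5 (5.82 ± 0.37) and in ESC (5.19 ± 0.22). In that order E18.5 and E14.5 overlapped, as did the adult with E8.5 and E8.5 with E9.5, and the other neighbours did not. Markers of other cells moved with Aldh1a2 at its rise. Of 10 epicardial markers 6 rose and 0 fell from E9.5 to E12.5, where their mean was 8.62 to 8.73 in left and 8.42 to 8.86 in right ventricles, against 7.65 to 7.73 in left and 7.32 to 7.70 in right ventricles at E9.5. All 7 fibroblast markers rose in the same step, with a median difference of 3.22, and so did all 6 leukocyte markers, with a median of 1.59. At the fall in the adult, 4 of the 10 epicardial markers and 4 of the 7 fibroblast markers fell too, and 1 and 2 rose. At day 3, where Aldh1a2 rose, 0 of the epicardial markers rose and 4 fell against E18.5, and of the 7 fibroblast markers 2 rose and 0 fell, with list means of 12.11 to 12.32 at day 3, against 11.38 to 12.11 at E18.5. Dhrs3, Rdh10 and Rarb, described here as well, were also higher at E12.5 than at E9.5, beside the same markers. The part of these cells in the values of the 4 genes was not tested.

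Aldh1a1, on chromosome 19 (chr19:20492583-20643463), encodes a second retinal dehydrogenase, which also acts on other aldehydes. It was dim before the ventricles, at 3.24 to 3.51 in ESC, 3.64 to 3.98 in embryos and 3.26 to 3.75 in heart tubes. At E9.5 it read 7.50, 7.53 and 7.71 in left and 7.03, 7.96 and 7.61 in right ventricles. Every E9.5 array was thus more than 3 units above every heart tube, and the fitted difference was 4.08 ± 0.19, 16.9-fold (adjusted p = 3.17e-13). The tube values have no known distance from background. In the same step 7 of 10 epicardial markers rose and 0 fell (list means of 7.32 to 7.73 at E9.5, against 6.38 to 6.68 in tubes), 4 of 5 red cell markers rose, 8 of 9 visceral endoderm markers fell and 5 of 9 markers of foregut, lung and liver fell. Their part in the Aldh1a1 value was not tested. From E12.5 to day 3 no single step of Aldh1a1 was called over both ventricles, and the stage means were 7.32 ± 0.26, 6.85 ± 0.22, 6.79 ± 0.31 and 6.27 ± 0.21 in order of age. In left ventricles alone it was lower at day 3 than at E18.5 (-1.11, adjusted p = 0.00105), and in right ventricles alone the difference was 0.08 (adjusted p = 0.886). Over both, the day 3 difference was -0.52 (adjusted p = 0.0608), and it was called without E18.5 number 3 (-0.69, adjusted p = 0.0209). In the adult it read 8.74, 9.25 and 9.71 in left and 9.23, 10.09 and 9.60 in right ventricles, against 6.24, 5.99 and 5.95 in left and 6.33, 6.95 and 6.17 in right ventricles at day 3. No adult array overlapped a day 3 array, and the difference was 3.17 ± 0.19, 8.98-fold (adjusted p = 1.73e-12). It was 3.05 without the marked arrays, 3.18 in left and 3.16 in right ventricles alone. Leukocyte markers rose in the same step, 5 of 6 (list means of 9.05 to 9.88 in the adult, against 7.62 to 7.88 at day 3), as did all 3 adipose markers (4.29 to 7.78 in the adult, against 4.05 to 4.42 at day 3). Their part in the Aldh1a1 value was not tested. Aldh1a2 fell in this step, and over the 15 group means the pair had a Pearson r of 0.00 (points that share arrays and stages, given as a description).

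Dhrs3, on chromosome 4 (chr4:144892534-144928209), encodes the reductase that returns retinal to retinol. It was at 5.15 ± 0.40 in ESC, 6.30 ± 0.40 in embryos, 6.30 ± 0.24 in tubes, 5.84 ± 0.11 at E9.5, 7.58 ± 0.11 at E12.5, 7.50 ± 0.06 at E14.5, 7.60 ± 0.09 at E18.5, 8.89 ± 0.02 at day 3 and 9.96 ± 0.02 in the adult. It was thus highest in the adult, and from E9.5 on each called step went up. The steps were 1.74 ± 0.16 for E12.5 over E9.5 (adjusted p = 1.16e-08), 1.29 ± 0.16 for day 3 over E18.5 (adjusted p = 3.87e-06) and 1.07 ± 0.16 for the adult over day 3 (adjusted p = 6.14e-06). The left ventricles read 8.90 on all 3 arrays at day 3 and the right ones 8.86, 8.94 and 8.86, so that both steps after birth were many times the spread. Leukocyte (5 of 6) and adipose markers (3 of 3) rose and 4 of 7 fibroblast markers fell in the adult step, and their part in the Dhrs3 value was not tested. The E7.5 embryo was 1.16 ± 0.16 above ESC (adjusted p = 1.98e-06). The difference of E9.5 from the tube (-0.46 ± 0.16, adjusted p = 0.0362) was lost without tube 1 (-0.41), tube 2 (-0.38), E9.5 number 2 (-0.41) or E9.5 number 3 (-0.46).

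Cyp26a1, on chromosome 19 (chr19:37697738-37701536), encodes the hydroxylase that clears retinoic acid. It read 8.78, 9.09 and 8.92 in ESC, 10.13, 10.19 and 9.99 in embryos and 8.42, 8.52 and 8.01 in tubes. At E9.5 it read 4.005, 4.468 and 4.134 in left ventricles and 6.989, 4.627 and 4.695 in right ventricles. On every later array it lay between 4.24 and 5.21, so that E9.5 right ventricle 1 was the one ventricle array that stood above the rest. Cyp26a1 was 1.18 ± 0.19 higher in the embryo than in ESC (adjusted p = 1.69e-05), it fell by 1.79 ± 0.19 in the tube against the embryo (adjusted p = 4.52e-08), and it fell by 3.50 ± 0.19 at E9.5 against the tube, 11.3-fold (adjusted p = 5.31e-12). In left ventricles alone the last difference was -4.12, and in right ventricles alone -2.88. From E9.5 on the stage means were 4.48 to 4.82, neighbours in their order overlapped, and no later step was called.

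The carriers Crabp1, on chromosome 9 (chr9:54764748-54773110), and Crabp2, on chromosome 3 (chr3:87948693-87953372), followed nearly the same course. Crabp2 hands retinoic acid to its receptors in the nucleus, and Crabp1 is linked to its breakdown. Crabp1 read 7.60, 7.86 and 7.50 in ESC, 10.49, 9.95 and 9.98 in embryos and 10.02, 10.31 and 9.89 in tubes. Crabp2 read 7.58, 7.65 and 7.66 in ESC, 11.03, 10.27 and 10.58 in embryos and 9.73, 10.08 and 9.89 in tubes. Both were thus high at E7.5 and E8.5, and no ESC array reached these groups. Their stage means in the ventricle were lower at each stage up to E18.5, with Crabp1 at 7.54 ± 0.27 at E9.5, 7.01 ± 0.06 at E12.5, 5.96 ± 0.63 at E14.5 and 4.49 ± 0.18 at E18.5. Crabp2 was at 7.63 ± 0.50, 6.33 ± 0.25, 5.60 ± 0.54 and 4.92 ± 0.12 at the same stages. After E18.5 neither changed by a called step, and the means stayed at 4.57 and 4.62 for Crabp1 and at 5.08 and 4.83 for Crabp2. Over the 15 group means the pair had an r of 0.975, higher than that of any other of 5237 genes with either of them.

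Crabp1 was 2.48 ± 0.23 and Crabp2 3.00 ± 0.23 higher in the embryo than in ESC (adjusted p = 3.67e-09 and 1.53e-10). At E9.5 against the tube Crabp1 fell by 2.53 ± 0.23 (adjusted p = 1.84e-08) and Crabp2 fell by 2.27 ± 0.23 (adjusted p = 1.05e-07). Crabp1 fell by 1.05 ± 0.23 at E14.5 against E12.5 (adjusted p = 0.00366) and fell by 1.48 ± 0.23 at E18.5 against E14.5 (adjusted p = 3e-05). Crabp2 fell by 1.3 ± 0.23 at E12.5 against E9.5 (adjusted p = 8.6e-05). The ventricles were also fitted one by one. In right ventricles alone Crabp1 fell by 1.01 at E12.5 against E9.5 (adjusted p = 0.00198) and fell by 1.98 at E14.5 against E12.5 (adjusted p = 7.46e-06). In left ventricles alone the same steps were -0.04 (adjusted p = 0.95) and -0.12 (adjusted p = 0.905), the second with E14.5 left ventricle 2, without which it was -0.73 (adjusted p = 0.14). For Crabp2 the same steps were -2.10 (adjusted p = 5.23e-06) and -1.26 (adjusted p = 0.00476) in right ventricles, against -0.51 (adjusted p = 0.185) and -0.20 (adjusted p = 0.776) in left ones. Without E14.5 left ventricle 2 the last of these was -0.73 and was called (adjusted p = 0.0297). That array was left out here after its values had been seen.

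Several of the smaller Crabp2 calls were lost when 1 replicate number was left out, which from E9.5 on takes away a left and a right array together. Crabp2 at E8.5 against E7.5 (-0.73 ± 0.23, adjusted p = 0.0125) was lost without embryo 1 (-0.52) or tube 1 (-0.64). At E14.5 against E12.5 (-0.73 ± 0.23, adjusted p = 0.0397) it was lost without E12.5 number 1 (-0.60) or 3 (-0.75), without E14.5 number 1 (-0.61) or 3 (-0.54), and with a replicate block (adjusted p = 0.0511). At E18.5 against E14.5 (-0.68 ± 0.23, adjusted p = 0.0288) it was lost without E14.5 number 2 (-0.37), E18.5 number 1 (-0.61) or E18.5 number 2 (-0.71). This last step was also not called in right ventricles alone (-0.39, adjusted p = 0.397). In left ventricles without E14.5 left ventricle 2 it was -0.44 (adjusted p = 0.0924). E14.5 left ventricle 2 held the highest Crabp1 and Crabp2 of its stage, 7.38 and 6.82, against 5.18 and 5.22 on left ventricle 1 and 5.96 and 5.25 on left ventricle 3. It was also marked by visceral endoderm genes, at a list mean of 8.32 against 5.79 and 7.40, with 6 of 9 markers over 1 unit above both others. Their part in the Crabp values was not tested.

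The receptors differed from each other. Rarb, on chromosome 14 (chr14:16430839-17082331), encodes the receptor whose own gene is induced by retinoic acid. It read 3.35, 3.38 and 3.66 in ESC, 7.55, 7.08 and 6.83 in embryos and 8.72, 8.39 and 8.22 in tubes, with no overlap between the 3 groups. The embryo was 3.69 ± 0.19 above ESC, 12.9-fold (adjusted p = 1.11e-13), and the tube 1.29 ± 0.19 above the embryo (adjusted p = 5.05e-06). Rarb fell by 0.75 ± 0.19 at E9.5 against the tube (adjusted p = 0.00482) and was 0.90 ± 0.19 higher at E12.5 than at E9.5 (adjusted p = 0.000566). From E12.5 on its stage means lay between 7.98 ± 0.12 at day 3 and 8.59 ± 0.16 at E12.5, and no step was called. In the adult it read 8.01, 7.96 and 9.04 in left and 8.1, 8.05 and 8.95 in right ventricles, so that number 3 was high in both. Of these 2 arrays, the right one also stood apart by its atrial markers, at a list mean of 10.98 against 7.15 and 9.17, and the left one did not, at 7.60 against 7.05 and 8.73.

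Rara, on chromosome 11 (chr11:98927800-98974942), encodes the widely expressed receptor, and its 45 values lay between 6.05 and 7.01. It was 0.36 ± 0.10 higher at E18.5 than at E14.5 (adjusted p = 0.00648) and fell by 0.49 ± 0.10 at day 3 against E18.5 (adjusted p = 0.00107), and the E18.5 stage values did not overlap those of its 2 neighbours in time. In right ventricles alone the first of these was 0.31 (adjusted p = 0.0628). All stages that were neighbours in the order of their Rara levels overlapped. The tube was 0.25 ± 0.10 above the embryo (adjusted p = 0.0419), a call lost without embryo 1 (0.18), embryo 3 (0.26), tube 1 (0.22) or tube 2 (0.20). Where Rarb differed by 12.9-fold between the embryo and ESC, the Rara difference was -0.17 (95% interval -0.37 to 0.04).

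**Figure D2:**
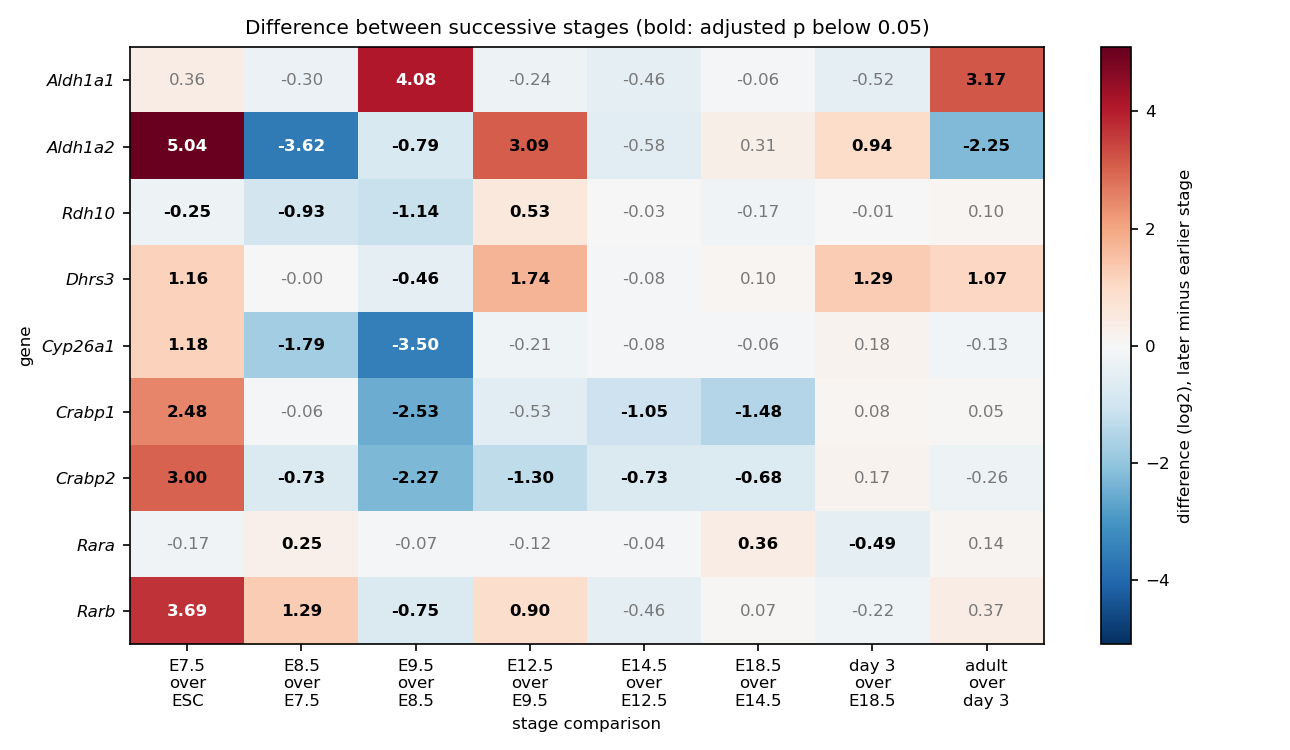
Difference in log2 value between each stage (first named) and the stage before it for the 9 genes; colour and number give the difference, bold marks an adjusted p below 0.05. At E9.5 against the tube 7 of the genes were lower and Aldh1a1 was 4.08 higher.

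Read by step, as in the map of differences between successive stages, the E7.5 embryo differed from ESC in 7 of the 9 genes, where 49.4% of all genes were called. Of these 6 were higher (24.3% of all genes) and 1 lower (25.2%). R1 cells were set against whole CD1 embryos, so that stage and source cannot be told apart in this step. The heart tube differed from the embryo in 6 (48.6% of all genes), with 2 higher (20.4%) and 4 lower (28.1%). Whole embryos were set against dissected hearts in this step: all 8 cardiomyocyte, all 8 endothelial and endocardial and all 5 red cell markers rose, all 9 visceral endoderm markers fell (median -3.94), and so did 5 of 6 pluripotent cell markers. Between embryo and ESC, all 9 visceral endoderm markers rose and all 6 pluripotent cell markers fell. The part of these cells in the changes of the members at E7.5 and E8.5 was not tested. At E9.5 against the tube 8 of 9 were called (26.9% of all genes), with 1 higher (12.8%) and 7 lower (14.1%). Whole heart tubes were set against dissected ventricles here, so that stage and dissected part cannot be told apart. In this step 8 of 9 visceral endoderm markers fell (median -2.64) and 0 rose. Of the 9 markers of foregut, lung and liver 5 fell (median -2.40) and 0 rose. The part of these cells in the changes of the members at E9.5 was not tested. Without heart tube 2 or E9.5 number 3 the calls of Aldh1a2 and Dhrs3 were lost, leaving 6. The median difference of the 9 genes in this step was -0.79, against -0.02 over all genes. At E12.5 against E9.5, 5 were called (38.1% of all genes), with 4 higher (20.1%) and 1 lower (18%).

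In each of the later steps 2 or 3 of the 9 were called. This was 22.2% of the 9 at E14.5 and 33.3% in each step after it, below the share of all genes only in the adult. At E14.5 against E12.5, 2 were called (13.3% of all genes), with 0 higher (7.18%) and 2 lower (6.09%). At E18.5 against E14.5, 3 were called (30.6%), with 1 higher (11.8%) and 2 lower (18.7%). At day 3 against E18.5, 3 were called (20.2%), with 2 higher (9.94%) and 1 lower (10.3%). In the adult against day 3, 3 were called (48.8%), with 2 higher (22.3%) and 1 lower (26.4%). The medians of the 9 genes in the last 4 steps were -0.46, -0.06, 0.08 and 0.10, against 0.013, -0.014, 0.013 and 0.025 over all genes.

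Between left and right ventricles, most calls among the 9 genes fell at E9.5. Of the 9 genes 3 were lower in the left ventricle and 0 higher, where 3.5% of all genes were called and 1.5% were lower. Left and right values did not overlap for 3 of the 9, as for 19.6% of all genes. Crabp1 read 6.34, 6.41 and 6.27 in left ventricles, against 9.33, 8.52 and 8.37 in right ventricles. Crabp2 read 6.64, 6.40 and 6.37 in left ventricles, against 9.73, 8.06 and 8.58 in right ventricles. For both carriers the groups lay over 1 unit apart. The left minus right difference was -2.40 ± 0.33 for Crabp1, 5.29-fold (adjusted p = 4.44e-06), and -2.32 ± 0.31 for Crabp2, 5.00-fold (adjusted p = 3.46e-06). Set beside the heart tube, which had no left and right sample, Crabp1 fell by 3.73 in the E9.5 left ventricle and fell by 1.33 in the right, and Crabp2 fell by 3.43 in the left and fell by 1.11 in the right.

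Right ventricle 1 was the highest of its group in all 3 genes. It also carried markers of the posterior trunk and limb at a mean of 6.51, against 5.21 and 5.01 in the other right ventricles and 4.96 to 5.11 in the left ones, with 4 of 8 markers over 1 unit above both others. So were 3 of 9 markers of foregut, lung and liver and 2 of 9 of visceral endoderm on this array. Without it the difference was -2.11 ± 0.35 for Crabp1 (adjusted p = 0.000236) and -1.85 ± 0.31 for Crabp2 (adjusted p = 0.000174). The Cyp26a1 difference (-1.24 ± 0.31, adjusted p = 0.0145) was -0.46 without it (adjusted p = 0.328). That call was also lost without left ventricle 1 (-1.14) or 3 (-1.20) and when the 2 groups were fitted alone (adjusted p = 0.33). Of 8 endothelial and endocardial markers, 7 were higher on every left than on every right array and 2 were called, the opposite direction to the Crabp genes. The smooth muscle and pericyte list was mixed. Its means were 7.72 to 7.88 in left ventricles, against 8.001 to 8.203 in right ventricles, and 1 of its 5 markers was called lower. Its median difference was 0.12, with 1 marker higher on every left than on every right array and 1 lower. Of 7 fibroblast markers 1 was called lower, with a median of 0.09. Their list means overlapped, at 7.916 to 8.314 in left and 7.916 to 8.613 in right ventricles. Of 8 posterior trunk and limb markers 1 was called lower, with a median of -0.38. The part of these cells in the Crabp and Cyp26a1 values was not tested. The 6 other genes at E9.5 had adjusted p over the threshold, and their values overlapped between the ventricles.

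At E12.5, of the 9, Crabp1 alone was called, lower in the left ventricle, where 1.26% of all genes were called and 0.918% were lower. It read 5.99, 6.52 and 6.39 in left ventricles, against 7.91, 7.63 and 7.64 in right ventricles, without overlap (-1.43 ± 0.33, adjusted p = 0.0136, and 0.0214 with the replicate block). The call was lost without left ventricle 1 (-1.27, adjusted p = 0.136) or right ventricle 1 (-1.34, adjusted p = 0.0908). Crabp2 read 5.87, 5.88 and 6.14 in left ventricles, against 7.32, 6.32 and 6.44 in right ventricles, also without overlap, and the difference of -0.73 ± 0.31 was not called (adjusted p = 0.486). These were the 2 of the 9 without overlap at E12.5, where 20.9% of all genes had none. Fibroblast markers were lower in the left ventricle too, 6 of 7 on every left array and 1 by a call, with list means of 10.71 to 10.96 in left ventricles, against 11.47 to 11.63 in right ventricles. The 5 smooth muscle and pericyte markers averaged 7.55 to 7.60 in left ventricles, against 8.315 to 8.404 in right ventricles, with 2 lower on every left array and 1 called. The part of these cells in the Crabp values was not tested.

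At E14.5 none of the 9 genes was called by limma, with 1 at an unadjusted p below 0.05, where 8.51% of all genes were called (4.24% higher and 4.27% lower in the left ventricle). Crabp1 read 5.18, 7.38 and 5.96 in left ventricles, against 5.78, 5.98 and 5.50 in right ventricles, and the difference of 0.42 ± 0.33 was -0.18 without left ventricle 2. Crabp2 read 5.22, 6.82 and 5.25 in left ventricles, against 5.49, 5.62 and 5.18 in right ventricles, and its difference of 0.33 ± 0.31 was -0.19 without left ventricle 2. Left and right values did not overlap for Dhrs3 (0.21 ± 0.16), Rarb (0.17 ± 0.20) and Cyp26a1 (-0.32 ± 0.31), with adjusted p of 0.458, 0.67 and 0.576, 3 of the 9 where 30.9% of all genes did not overlap. At E18.5 none was called, with 2 at an unadjusted p below 0.05 (4.95% of all genes called, 2.84% higher and 2.11% lower). Left and right values did not overlap there for Rdh10 (0.14 ± 0.11), Cyp26a1 (-0.35 ± 0.31) and Rarb (-0.26 ± 0.20), with adjusted p of 0.537, 0.599 and 0.533. With both retinal dehydrogenases these made 5 of the 9, where 21.1% of all genes did not overlap. At day 3 and in the adult none was called and 0 had an unadjusted p below 0.05, where 0.0055% and 0.0165% of all genes were called. Over the mean of the 6 stages, the left minus right difference was -0.58 ± 0.13 for Crabp1 (adjusted p = 0.00883) and -0.53 ± 0.13 for Crabp2 (adjusted p = 0.0136), where 2.97% of all genes were called and 1.72% were lower. The difference depended on stage for both, by an F-test over the 6 stages, with an adjusted p of 0.000294 for Crabp1 and 0.00141 for Crabp2 (5.85% of all genes).

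**Figure D3:**
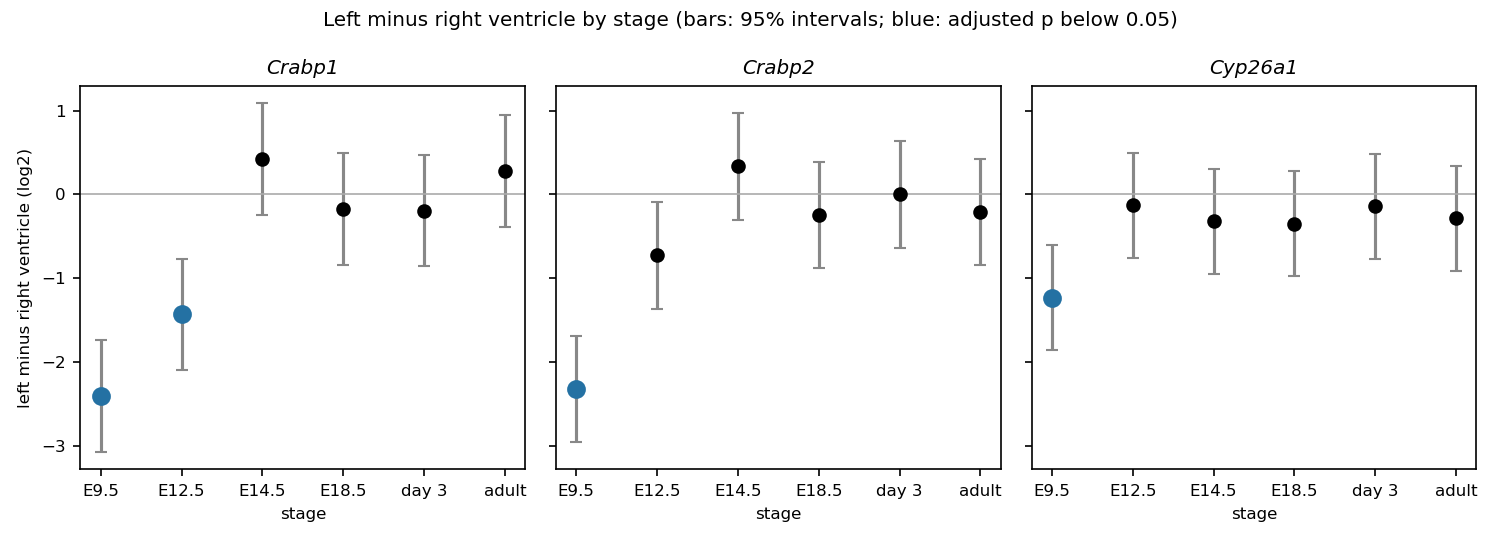
Left minus right difference in log2 value of Crabp1, Crabp2 and Cyp26a1 at each of the 6 ventricle stages, with 95% intervals from the limma fit and calls in blue. Crabp1 and Crabp2 were over 2 units lower in the left ventricle at E9.5, and their intervals included 0 from E14.5 on.

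The 2 genes with an unadjusted p below 0.05 at E18.5 were the retinal dehydrogenases. Aldh1a1 read 7.57, 7.41 and 6.52 in left ventricles, against 6.49, 6.38 and 6.36 in right ventricles. Aldh1a2 read 9.05, 9.07 and 8.74 in left ventricles, against 8.36, 8.37 and 8.21 in right ventricles. Neither pair of groups overlapped, but Aldh1a1 (0.76 ± 0.25, adjusted p = 0.0723) and Aldh1a2 (0.64 ± 0.31, adjusted p = 0.248) missed the threshold. Without left ventricle 3, the lowest of its group in both, Aldh1a1 passed (1.08, adjusted p = 0.00397). Epicardial markers moved the same way. Their mean was 9.01, 9.09 and 8.39 in left ventricles, against 7.62, 7.58 and 7.46 in right ventricles, 7 of the 10 were called higher in the left and 0 lower, and left ventricle 3 was again the lowest of its group. Of 6 leukocyte markers 4 were called higher in the left, with list means of 8.49, 8.31 and 7.62 in left ventricles, against 7.19 to 7.28 in right ventricles. Of 9 visceral endoderm markers 3 were, with list means of 6.37, 8.28 and 6.12 in left ventricles, against 5.12 to 5.68 in right ventricles. The part of these markers' cells in the Aldh1a1 and Aldh1a2 values was not tested.

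The list of other pathway genes held 54, of which 47 were measured. From ESC to E7.5, 19 were higher and 10 lower, 61.7% of the list against 49.4% of all genes. Of the 13 measured genes known to respond to retinoic acid, 9 were higher and 1 lower, where 24.3% and 25.2% of all genes were. Among the higher ones were the homeobox genes Hoxb1 (6.63 higher) and Meis2 (4.80 higher). The retinol carrier genes Rbp4 and Ttr were 7.23 and 7.08 higher. In the heart tube 11 were higher and 16 lower against the embryo (57.4% against 48.6% of all genes). There the posterior homeobox gene Cdx1 fell by 5.19, and the nuclear receptor gene Nr2f1 was 3.52 ± 0.19 higher (adjusted p = 2.2e-13), while Rbp4 fell by 3.45 and Hoxb1 fell by 3.34. At E9.5 against the tube, 4 were higher and 15 lower (40.4% against 26.9%), and of the 13 responsive genes 1 was higher and 7 lower. Of all genes 12.8% were higher and 14.1% lower in this step. Hoxb1, a homeobox gene that retinoic acid induces in the hindbrain, fell by 3.39 ± 0.25 (adjusted p = 6.84e-10), and the transglutaminase gene Tgm2 was 1.59 ± 0.26 higher (adjusted p = 6.42e-05). Of the genes of the retinol carriers, Rbp4 fell by 3.31 and Ttr fell by 3.56 in this step. Rbp4 and Ttr are also visceral endoderm markers, and that list read 10.1 on heart tube 2, against 6.65 and 7.64 on the other tubes.

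At E12.5 against E9.5, 16 of the 47 were higher and 1 lower (36.2% called, against 38.1% of all genes, with 20.1% higher and 18% lower). Besides Aldh1a2, Rdh10 and Dhrs3, the alcohol dehydrogenase gene Adh1 was 2.27 ± 0.19 higher (adjusted p = 1.82e-09). Lrat, which stores retinol as an ester, was 1.96 ± 0.25 higher (adjusted p = 1.07e-06), and the nuclear receptor gene Nr2f2 was 1.32 ± 0.18 higher (adjusted p = 3.26e-06), with 1 of its other probe sets in the opposite direction (-0.24). Bhlhe40, which encodes a transcriptional repressor, was 1.08 ± 0.16 higher (adjusted p = 6.6e-06). Of the 4 other receptors 3 were higher, where 20.1% of all genes were. At E14.5 the counts were 3 higher and 1 lower (8.51% against 13.3% of all genes), and at E18.5 they were 6 and 6 (25.5% against 30.6%). The cellular retinol carrier gene Rbp7 was 2.09 ± 0.23 higher at E14.5 (adjusted p = 1.27e-06) and a further 2.89 ± 0.23 at E18.5 (adjusted p = 2.03e-09), while Lrat fell by 2.20 ± 0.25 at E18.5 against E14.5 (adjusted p = 4.25e-07). At E14.5 Rdh5 was 0.52 and Rdh14 0.35 higher and Meis2 fell by 0.46, with 1 other Meis2 probe set opposite (0.25), and at E18.5 Rdh7 was 0.84 higher and Nr2f1 fell by 1.06. After birth 5 were higher and 5 lower at day 3 (21.3% against 20.2%), and 11 higher and 6 lower in the adult (36.2% against 48.8%). The retinoid X receptor gene Rxrg was 1.75 ± 0.15 higher at day 3 than at E18.5 (adjusted p = 1.27e-08) and 2.15 ± 0.15 higher in the adult than at day 3 (adjusted p = 2.07e-11). At day 3 Dhrs4 was 1.18 and Rbp7 1.11 higher, and Rbp4 fell by 1.63 ± 0.55 (adjusted p = 0.0389). In the adult Rbp4 was 1.83 ± 0.55 higher (adjusted p = 0.00801), the retinal reductase gene Rdh11 fell by 1.76 ± 0.13 (adjusted p = 1.12e-10), and the lipid and retinoic acid carrier gene Fabp5 fell by 1.36 ± 0.08 (adjusted p = 1e-12).

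**Figure D4:**
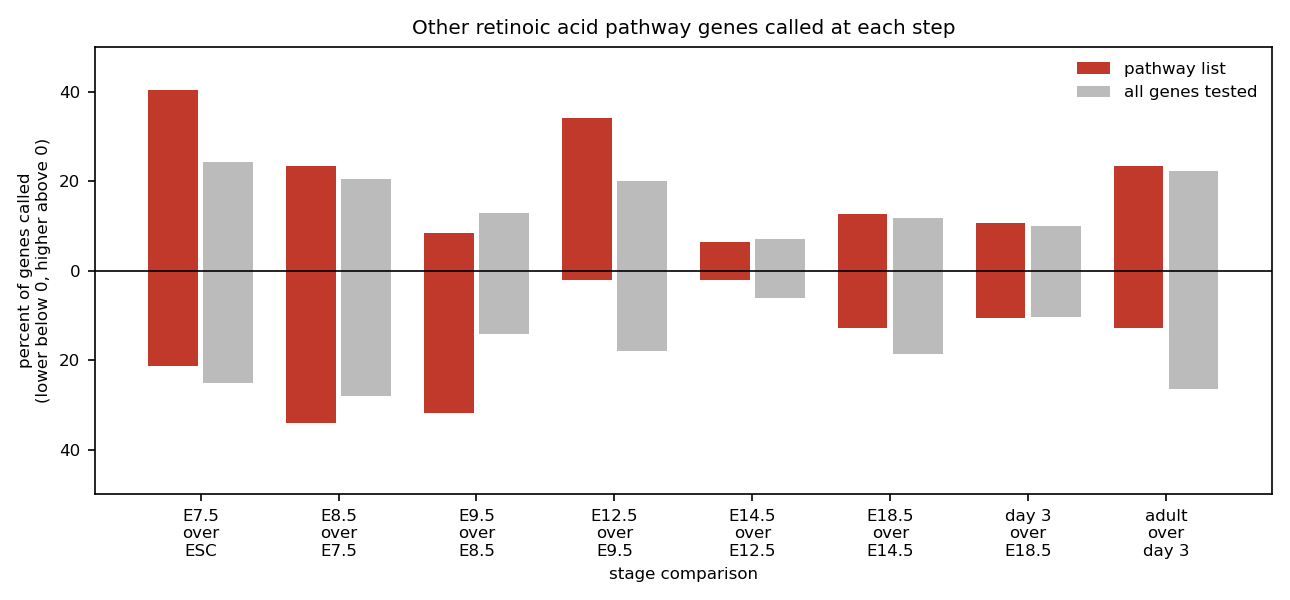
Percent of the 47 other pathway genes (red) and of all 18193 genes (grey) called higher (above 0) and lower (below 0) in each stage against the stage before. The list had 16 genes higher and 1 lower at E12.5 against E9.5, and 4 higher and 15 lower at E9.5 against the tube.

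Between the ventricles, the calls among the 47 genes numbered 3 at E9.5 (6.38% of the list, against 3.5% of all genes), 1 at E12.5 (2.13% against 1.26%), 3 at E14.5 (6.38% against 8.51%), 5 at E18.5 (10.6% against 4.95%) and 0 after birth. At E9.5 Tgm2 was 1.15 ± 0.25 higher (adjusted p = 0.00333) and Nr2f2 0.70 ± 0.19 higher in the left ventricle (adjusted p = 0.0336), and the Meis2 difference was -0.60 ± 0.15 (adjusted p = 0.0166). Meis2 was called lower in the left ventricle at E12.5 (-0.75), E14.5 (-0.57) and E18.5 (-0.52) as well, with 1 other Meis2 probe set opposite at E14.5 (0.81). At E14.5 the other calls were Nrip1 (0.54), with 2 other probe sets opposite (-0.19 and -0.12), and Dhrs4 (-0.33). Over the mean of 6 stages 3 were lower and 0 higher in the left ventricle (6.38% of the list, against 2.97% of all genes called and 1.72% lower), Meis2 (-0.48 ± 0.06, adjusted p = 3e-06), Meis1 (-0.31 ± 0.06, adjusted p = 0.00249) and Nr2f1 (-0.38). At E18.5 Adh1 was 1.25 ± 0.28 higher in the left ventricle (adjusted p = 0.00629), Rbp4 2.75 ± 0.76 higher (adjusted p = 0.0284) and Rdh7 1.5 ± 0.38 higher (adjusted p = 0.0165), beside the higher epicardial, leukocyte and visceral endoderm markers there. Rbp4 is itself one of the visceral endoderm markers, the list by which E18.5 left ventricle 2 was marked (list mean of 8.28). The part of these markers' cells in the 3 values was not tested.

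Genes whose 15 group means followed each member most closely were sought among 5237 genes with a range of at least 2, by Pearson r and as a description only, since the points share arrays and stages. Cldn6 (0.986) came nearest to Cyp26a1, Nrp1 (0.978) to Rarb, Atp9a (0.975) to Dhrs3, Rhpn2 (0.974) to Rdh10, Pf4 (0.938) to Aldh1a1 and Ror1 (0.857) to Aldh1a2. Crabp1 and Crabp2 were each other's nearest gene, followed by Amot (0.963) and Gata3 (0.962) for Crabp1 and by Lama1 (0.963) and Dkk1 (0.962) for Crabp2. Next in likeness were Prr36 and Prss8 for Cyp26a1, Tmem267 and Enpep for Rarb, Acy3 and Kif1c for Dhrs3, Camsap3 and Lrp2 for Rdh10, Ppm1k and Gpr22 for Aldh1a1, and Sgk3 and Antxr1 for Aldh1a2. Among the members, Cyp26a1 also ran with Rdh10 (0.905) and with Crabp2 (0.839), and opposite to Aldh1a1 (-0.83). Rara was left out, since its range was under 2.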

How the data were processed

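Expression was measured on 45 arrays. The authors deposited log2 values per probe set, made with RMA (background correction, quantile normalization, probe summary), per the submitters' processing notes; its version is not given in the sources used here. Quantile normalization removes a change shared by most genes, and RMA compresses differences of dim genes. The table held 45101 probe sets with values from 2.07 to 15.2 and array medians from 5.35 to 5.47. The number of arrays limits the precision. Symbols came from the platform annotation, with 1 symbol for 34945 probe sets, and each of 18193 genes was represented by its probe set with the highest mean. Of the 9 genes, 8 have 1 probe set.

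R 4.3.3 and limma 3.58.1 (lmFit, eBayes) gave the two-sided tests, with Benjamini-Hochberg adjustment over all genes. Stages were fitted as 27 values (18 residual degrees of freedom) and ventricles as 45 arrays in 15 groups (30), without a block. The stage values averaged equal numbers at every ventricle stage. The fit was tested on simulated data. The replicates were described as biological. The labels do not state that equal numbers pair the ventricles. Their deviations from the group means correlated at E12.5 (0.271, 0.321 and 0.369 over all genes), so that the fit with a replicate block is printed beside the E12.5 ventricle call; at each other stage at least 1 of 3 was not over 0.1. The genes, lists and the rule for naming genes (in each comparison the largest called changes of the pathway list, up to 4) were chosen with earlier results of these data known. Tables and figures were made with Python 3.11.15, pandas 2.3.3, NumPy 2.4.6 and Matplotlib 3.10.9. Alternatives were other eBayes settings, probe set rules, a filter on dim genes, housekeeping scaling, stricter thresholds, single ventricles, fits of only the groups compared, arrays or replicate numbers left out and a replicate block; one, left ventricles without E14.5 left ventricle 2, was chosen after seeing the data.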

Additional observations from a re-analysis of the deposited data

Results flagged for a closer look

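The left minus right difference depended on stage for Crabp1 (adjusted p of the F-test 0.000294) and for Crabp2 (0.00141), the test of the difference between the stages itself. Both were lower in the left ventricle at E9.5, with differences of -2.40 and -2.32, and at E14.5 the differences were 0.42 and 0.33, neither called (adjusted p = 0.465 and 0.556), and -0.18 and -0.19 without E14.5 left ventricle 2. Leaving out single arrays kept both calls, with an adjusted p of up to 0.00183 for Crabp1 and 0.01 for Crabp2, both without E9.5 right ventricle 1.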

How the results depend on the processing

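Of 3015 repeats of 144 single-gene results, 2906 kept their call, 82 lost it, 27 gained one and 0 reversed it. Of 179 counts of called members under settings other than leaving out a replicate, 47 differed from the value in the report, 31 of them within 1.5 times and by at most 2 genes. The other 16 were these; the cause was not tested unless named. With housekeeping scaling 6 of the 9 genes were called in the adult against day 3 (3 otherwise), Rdh10, Rara and Rarb being added. That scaling moved the median difference of all genes to 0.129 at E7.5 (-0.02 otherwise), 0.208 at E12.5 (0.045) and 0.216 in the adult (0.025). It put 7426 of 9427 called genes higher at E12.5 (3655 of 6936 otherwise), 8069 of 11454 in the adult (4066 of 8872), 6511 of 9569 at E7.5 (4414 of 8993), 1699 of 5481 at E9.5 (2337 of 4900) and, left over right at E18.5, 413 of 894 (516 of 900). At an adjusted p below 0.01 the counts were 1 at E14.5 against E12.5, 0 for the ventricles at E12.5 and 1 for their mean. At 2-fold or more they were 3 at E8.5, 5 at E9.5, 3 at E12.5, and 1 each at E14.5, E18.5 and day 3, with 0 for the ventricle mean. With left ventricles alone the count was 0 at E14.5 (1 without E14.5 left ventricle 2), and with right ventricles alone 1 at E18.5. With only the stages compared, 5 were called at day 3 (3 otherwise), Aldh1a1 and Rarb being added. With a replicate block 1 was called at E14.5 against E12.5 (2 otherwise), Crabp2 being lost, and it changed no other call of the 9 genes; with it the adjusted p at E9.5 was 0.000104 for Crabp1, 4.14e-05 for Crabp2 and 0.0428 for Cyp26a1.

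Leaving out each replicate number in turn, from E9.5 on a left and a right array together, gave 6 to 7 calls at E7.5 against ESC, 4 to 6 at E8.5, 6 to 8 at E9.5, 5 at E12.5, 1 to 2 at E14.5, 2 to 3 at E18.5, and 3 to 4 at day 3 and in the adult. For the ventricles, leaving out each array in turn gave 2 to 3 at E9.5, 0 to 1 at E12.5, 0 at E14.5, 0 to 1 at E18.5, 0 at day 3 and in the adult, 2 to 3 for the mean and 2 to 3 for the dependence on stage. No detection calls were used, so that the low values of Aldh1a1 and Rarb in ESC and of Cyp26a1 in the ventricle have no known distance from background.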
